A study of Mus musculus with 6 samples.

Results

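Perineuronal nets are lattices of hyaluronan, chondroitin sulfate proteoglycans, link proteins and tenascin-R that wrap the soma and proximal dendrites of neurons, above all of fast-spiking interneurons that express parvalbumin. The proteoglycans aggrecan, brevican, neurocan and versican, together called lecticans, bind hyaluronan at their N-terminal end, link proteins lock that bond, and tenascin-R joins the other ends. Extracellular proteases cut the lattice and tissue inhibitors restrain them, and in the amygdala the nets are known for their part in the persistence of fear memories.

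The 10 genes described here were chosen by symbol from 26264 symbols in the files: the lecticans Acan, Bcan, Ncan and Vcan, tenascin-R (Tnr), the link proteins Hapln1 and Hapln4, the proteases Mmp9 and Adamts4 and the inhibitor Timp2. Their RNA was measured in dissected basolateral amygdala of male mice, in 3 biological replicates under chronic restraint stress (CRS), in which mice are held immobile repeatedly, and 3 not-stressed controls (Ctrl), each a total RNA library after ribosomal RNA depletion. The sources used here do not give strain, age or the length of the restraint. All 10 genes passed the filter on low counts, which kept 14739 genes.

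Libraries held 9859449 to 10179081 counts in genes under CRS and 9870139 to 10233706 in Ctrl. The dissections differed. Markers of basolateral glutamatergic neurons, led by Camk2a and Slc17a7, were present in each library and summed to 2865 to 3024 CPM (counts scaled to the library size) under CRS and 2460 to 3046 CPM in Ctrl. Markers of striatal and central amygdala neurons summed to 141, 643 and 715 CPM in CRS 1 to 3 and to 1294, 673 and 776 CPM in Ctrl 1 to 3, so that CRS 1 was lowest and Ctrl 1 highest. Choroid plexus and ependymal markers, led by Ttr, summed to 17.8, 5914 and 28.6 CPM in CRS 1 to 3, against 2315, 4104 and 46.4 CPM in Ctrl 1 to 3. In bulk tissue, fewer cells of a type and less RNA per cell cannot be told apart.

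The comparison asked whether net and matrix genes differ between stressed and control amygdala. None of the 10 passed the threshold of 0.05 on the adjusted p of edgeR's quasi-likelihood test, and neither did any of the 14739 genes tested (0 of 10, and 0% of all). At an unadjusted p under 0.05 the count was again 0 of 10, against 3.37% of all genes. DESeq2 and limma-voom also called 0 of the 10. Adjusted p was 0.997 for 9 of the genes and 1.00 for Acan. The CRS and Ctrl values did not overlap for 1 of the 10, Mmp9, against 8.28% of all tested genes. The log2 fold change, CRS minus Ctrl, was above 0 for 6 genes and below 0 for 4 (51.6% of all tested genes were below 0), with a median of 0.0090, beside -0.0044 over all tested genes.

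**Figure D1:**
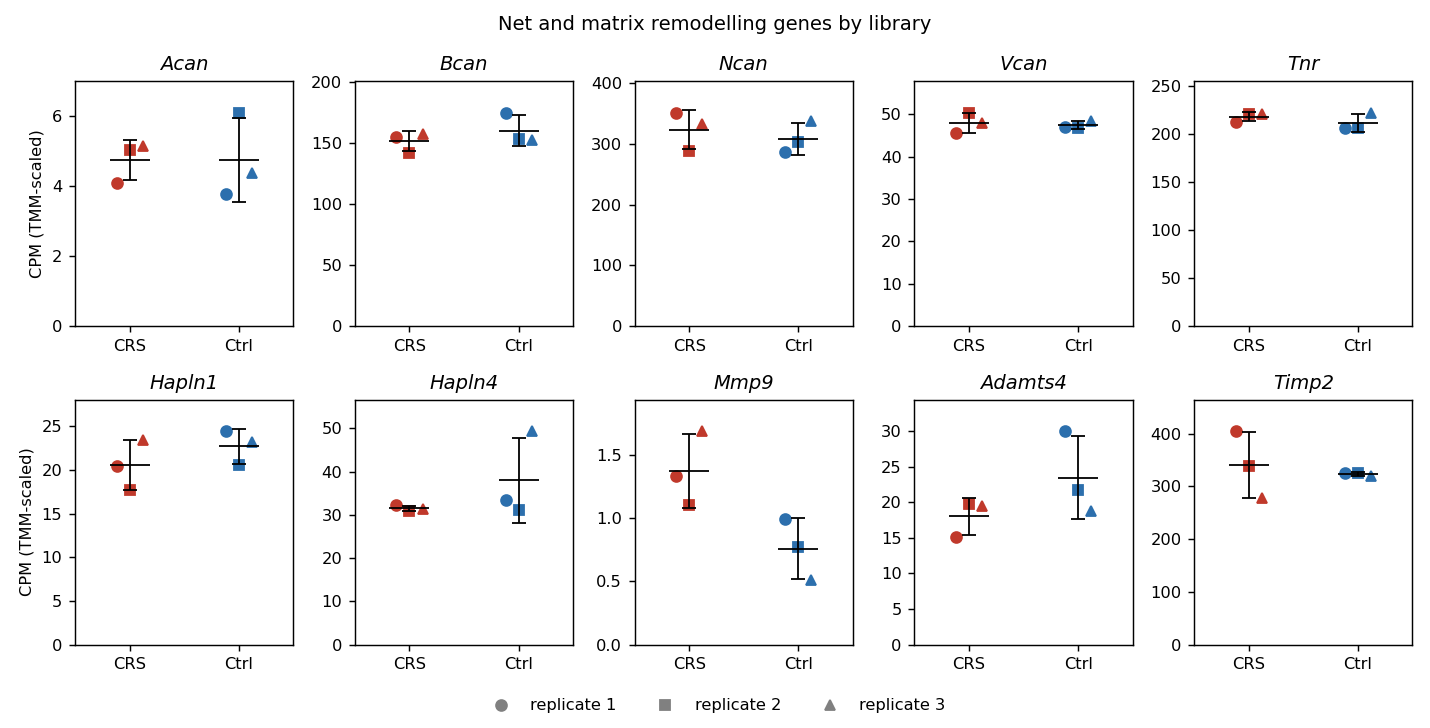
Level of each of the 10 genes in each library, in CPM with TMM-scaled library sizes (vertical axis from 0), for CRS and Ctrl. Points are libraries, the marker shape gives the replicate number, and bars are the mean ± SD of 3 libraries. Mmp9 is the gene whose groups do not overlap, and Hapln4 has a single high library, Ctrl 3.

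Aggrecan, whose gene is Acan, is the lectican most used to stain nets. Acan had 4.10, 5.03 and 5.16 CPM in CRS 1 to 3, against 3.77, 6.10 and 4.39 CPM in Ctrl 1 to 3. The CRS values lay inside the Ctrl range. The means were 4.76 ± 0.576 CPM under CRS and 4.75 ± 1.21 CPM in Ctrl (SD, n = 3 each). CRS minus Ctrl was 0.0015 ± 0.22 (SE) on the log2 scale, with a 95% interval from -0.51 to 0.52, so changes of up to 1.43-fold higher or to 0.70 of the Ctrl level lie inside it. Acan was thinly covered, with 142 counts over the CRS libraries and 144 over the Ctrl libraries. Its sign followed single libraries: the log2 fold change was -0.14 without Ctrl 1, -0.05 without Ctrl 3, -0.03 without CRS 2, -0.06 without CRS 3 and 0.23 without Ctrl 2.

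Parvalbumin, encoded by Pvalb, marks the interneurons that most nets surround. Pvalb had 12.2, 7.84 and 7.74 CPM in CRS 1 to 3, against 11.2, 9.68 and 10.6 CPM in Ctrl 1 to 3. The highest library of all was CRS 1 and the other CRS libraries were the lowest. The Pvalb log2 fold change was -0.18 ± 0.19, with an interval from -0.63 to 0.26. It was -0.43 without CRS 1 (edgeR, unadjusted p = 0.0198, adjusted p = 1.00), -0.07 without CRS 2, -0.07 without CRS 3, and -0.38 without both Ctrl 1 and CRS 1. With the striatal and central amygdala level as a covariate it was -0.48, and with that of mature oligodendrocytes -0.29. The mean log2 level of 6 parvalbumin interneuron markers, relative to the Ctrl mean, was -0.01, -0.25 and -0.11 in CRS 1 to 3 and 0.28, -0.15 and -0.13 in Ctrl 1 to 3. Ctrl 1 was the highest library for this mean and the lowest for Acan. Among the markers Syt2, Gad1 and Lhx6 were highest in Ctrl 1, while Pvalb, Kcnc1 and Cox6a2 were not. Syt2 stood out, at 40.7 CPM in Ctrl 1 against 12.2 to 17.1 CPM in the other libraries.

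Brevican, encoded by Bcan, and neurocan, encoded by Ncan, are lecticans found largely in the nervous system and made by glia as well as neurons. Bcan had 155, 142 and 157 CPM in CRS 1 to 3, against 175, 153 and 153 CPM in Ctrl 1 to 3. The groups overlapped, with Ctrl 1 the highest library. Its log2 fold change was -0.08 ± 0.08 and the 95% interval, from -0.26 to 0.10, corresponds to 0.837 to 1.07 of the Ctrl level. Ncan had 351, 288 and 332 CPM in CRS 1 to 3, against 286, 303 and 338 CPM in Ctrl 1 to 3. CRS 1 was the highest library and Ctrl 1 the lowest, and the groups overlapped. The Ncan log2 fold change was 0.07 ± 0.09, with an interval from -0.15 to 0.29.

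Astrocytes are a main source of both, and the mean log2 level of 9 astrocyte markers, led by Slc1a2 and Slc1a3, was -0.0010, -0.18 and -0.22 in CRS 1 to 3 and 0.03, 0.02 and -0.05 in Ctrl 1 to 3, relative to the Ctrl mean. Of these 9 markers, 8 had a log2 fold change below 0. Whether they bear on Bcan or Ncan was not tested.

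Versican, encoded by Vcan, is made by oligodendrocyte precursors and found in the matrix at nodes of Ranvier. Vcan had 45.5, 50.3 and 47.9 CPM in CRS 1 to 3, against 46.9, 46.7 and 48.5 CPM in Ctrl 1 to 3. Its coefficient of variation over the 6 libraries was 3.47%, the lowest of the 10 genes. The log2 fold change of 0.02 ± 0.07 had an interval from -0.14 to 0.18, or 0.906 to 1.13 of the Ctrl level, and without CRS 2 it was -0.02. Tenascin-R, encoded by Tnr and made by oligodendrocyte-lineage cells and some neurons, varied by 3.51%. Tnr had 213, 221 and 221 CPM in CRS 1 to 3, against 206, 206 and 222 CPM in Ctrl 1 to 3. The groups overlapped through Ctrl 3, and the log2 fold change was 0.05 ± 0.06, with an interval from -0.09 to 0.19. For Bcan, Vcan and Tnr the intervals left out a change of 1.2-fold in either direction.

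Link proteins hold lecticans on hyaluronan. Hapln1, the cartilage link protein that is also made by net-bearing neurons, had 20.5, 17.7 and 23.4 CPM in CRS 1 to 3, against 24.4, 20.5 and 23.2 CPM in Ctrl 1 to 3. The groups overlapped. Its log2 fold change was -0.14 ± 0.12, with an interval from -0.43 to 0.14, and it was -0.04 without CRS 2, -0.09 without Ctrl 1 and -0.25 without CRS 3. Hapln4, the brain link protein found in nets with brevican, had 32.2, 31.0 and 31.3 CPM in CRS 1 to 3, against 33.4, 31.2 and 49.3 CPM in Ctrl 1 to 3. Ctrl 3 stood apart from the other 5 libraries, which lay within 31.0 to 33.4 CPM. The Hapln4 log2 fold change was -0.27 ± 0.17, with an interval from -0.67 to 0.13, and it was -0.04 without Ctrl 3.

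The genes most like Hapln4 over the 6 libraries, out of 11917 with a mean of at least 5 CPM, were Adrb1, the beta-1 adrenergic receptor, Zbtb48 and Cmya5. The root mean square difference of their centred log2 CPM from that of Hapln4 was 0.06, 0.08 and 0.08. Adrb1 had 13.6, 13.7 and 13.8 CPM in CRS 1 to 3, against 13.0, 13.0 and 20.7 CPM in Ctrl 1 to 3. The likeness chose these genes, so their shared high library, Ctrl 3, is a description.

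Matrix metalloproteinase 9, encoded by Mmp9, is a secreted gelatinase that neurons release with activity and that can loosen nets. Mmp9 had 13, 11 and 17 counts in CRS 1 to 3, against 10, 8 and 5 counts in Ctrl 1 to 3. On the CPM scale these were 1.33, 1.11 and 1.69 under CRS, against 0.992, 0.775 and 0.510 in Ctrl. Each CRS library lay above each Ctrl library, a pattern shown by 3.80% of all tested genes. The means were 1.38 ± 0.292 CPM under CRS and 0.759 ± 0.241 CPM in Ctrl (SD, n = 3 each). On the log2 scale CRS minus Ctrl was 0.84 ± 0.38, with an interval from -0.03 to 1.72 (edgeR's quasi-likelihood test, unadjusted p = 0.0572, adjusted p = 0.997). With 41 counts over the CRS libraries and 23 over the Ctrl libraries, this is the least covered of the 10 genes.

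The log2 fold change of Mmp9 stayed above 0 in 16 alternatives, from 0.63 without Ctrl 3 to 1.10 with both Ctrl 1 and CRS 1 left out. Its unadjusted p was 0.0485 with no filter on low counts, 0.0455 with limma-voom and 0.0493 without CRS 2, with adjusted p of 0.925, 0.977 and 0.762. Neutrophils carry this protease. Of 6 neutrophil markers, Ly6g, Camp and Retnlg had no count in any library, and the list summed to at most 0.397 CPM in a CRS library and 0.408 CPM in a Ctrl library. Microglia and macrophage markers, among them Csf1r, summed to 394 to 409 CPM under CRS and 397 to 445 CPM in Ctrl. Endothelial markers, led by Slco1a4 and Flt1, summed to 159 to 172 CPM under CRS and 164 to 203 CPM in Ctrl. The part of any of these cell types in the Mmp9 value was not tested.

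Adamts4 encodes a secreted protease that cleaves aggrecan, brevican and other lecticans, and in the adult mouse brain its RNA is found mainly in oligodendrocytes. Adamts4 had 15.1, 19.7 and 19.4 CPM in CRS 1 to 3, against 30.0, 21.7 and 18.8 CPM in Ctrl 1 to 3. Ctrl 1 was the highest library and CRS 1 the lowest, and Ctrl 3 lay below 2 of the CRS libraries. The means were 18.1 ± 2.60 CPM under CRS and 23.5 ± 5.81 CPM in Ctrl (SD, n = 3 each). The log2 fold change was -0.38 ± 0.19, with an interval from -0.82 to 0.07 (edgeR, unadjusted p = 0.0851, adjusted p = 0.997).

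Mature oligodendrocyte markers had the same highest and lowest library as Adamts4. The mean log2 level of these 10 markers, among them the myelin gene Mbp, was -0.64, -0.07 and -0.40 in CRS 1 to 3 and 0.42, -0.12 and -0.30 in Ctrl 1 to 3, relative to the Ctrl mean. On the same scale Adamts4 was at -0.61, -0.22 and -0.24 in CRS 1 to 3 and 0.38, -0.09 and -0.29 in Ctrl 1 to 3. The 10 markers summed to 1774, 2553 and 2007 CPM in CRS 1 to 3, against 3597, 2489 and 2271 CPM in Ctrl 1 to 3, and all 10 had a log2 fold change below 0. With the level of these markers as a covariate the Adamts4 log2 fold change was -0.06. The covariate was added once the shared profile was known and restates it, and the part of oligodendrocyte content in the Adamts4 value was not tested. The log2 fold change was -0.16 without Ctrl 1, -0.26 without CRS 1, -0.05 without both, and -0.51 without Ctrl 3, where the unadjusted p was 0.0259 and the adjusted p 0.855. With the striatal and central amygdala level as a covariate it was -0.12.

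The genes most like Adamts4 were Cep41, a centrosomal protein gene, Erbb3, a neuregulin receptor, and Cnp, a myelin enzyme that is also among the mature oligodendrocyte markers, with root mean square differences of 0.06, 0.07 and 0.07. Cnp had 123, 173 and 148 CPM in CRS 1 to 3, against 248, 169 and 157 CPM in Ctrl 1 to 3. Since these genes were chosen for their likeness over the same libraries, their profile is a description.

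**Figure D2:**
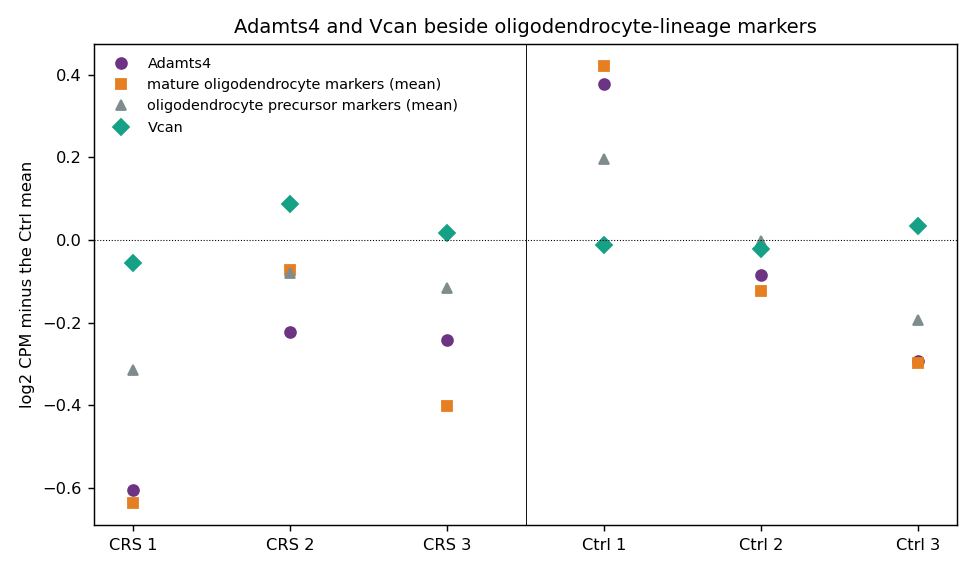
Log2 CPM minus the Ctrl mean (vertical axis) in each library for Adamts4 and Vcan, beside the mean of 10 mature oligodendrocyte and 8 oligodendrocyte precursor markers. Adamts4 and the mature markers are highest in Ctrl 1, at 0.38 and 0.42, and lowest in CRS 1, at -0.61 and -0.64, while Vcan stays between -0.06 and 0.09.

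Vcan stayed near its Ctrl mean beside markers of the precursors. The mean log2 level of 8 oligodendrocyte precursor markers, led by Pdgfra and Gpr17, was -0.31, -0.08 and -0.12 in CRS 1 to 3 and 0.20, -0.0029 and -0.19 in Ctrl 1 to 3. Relative to its own Ctrl mean, Vcan was at -0.06, 0.09 and 0.02 in CRS 1 to 3 and -0.01, -0.02 and 0.03 in Ctrl 1 to 3. Of the 8 precursor markers, 7 had a log2 fold change below 0, with a median of -0.13 over the list. The 1 above 0, at 0.02, was Pdgfra, the receptor that defines the precursors. Pdgfra had 105, 116 and 109 CPM in CRS 1 to 3, against 117, 110 and 96.8 CPM in Ctrl 1 to 3.

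Timp2 encodes an inhibitor of matrix metalloproteinases that also takes part in activating the gelatinase Mmp2. Timp2 had 404, 339 and 278 CPM in CRS 1 to 3, against 324, 326 and 320 CPM in Ctrl 1 to 3. The CRS libraries spread to both sides of the Ctrl libraries, which lay close together. The SD was 62.7 CPM under CRS and 3.10 CPM in Ctrl (n = 3 each), around means of 341 and 323 CPM. The log2 fold change was 0.07 ± 0.12, with an interval from -0.21 to 0.36. It was -0.07 without CRS 1 and 0.20 without CRS 3.

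**Figure D3:**
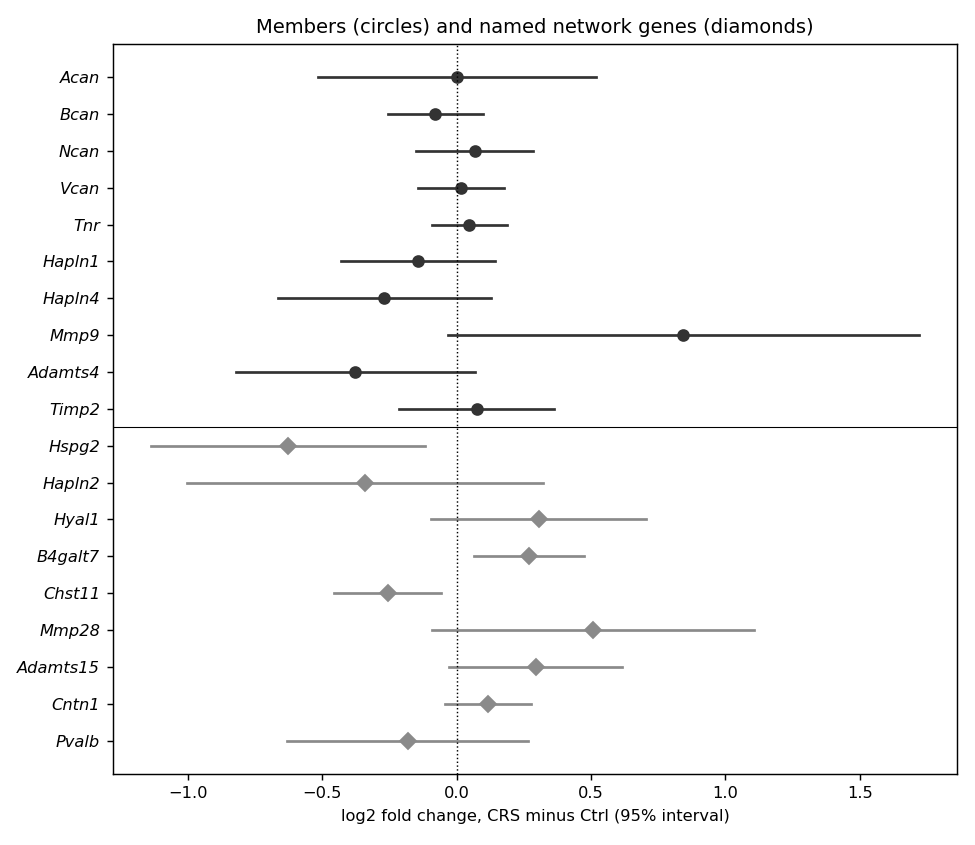
Log2 fold change, CRS minus Ctrl, with its 95% interval (horizontal axis) for the 10 genes (circles, above the line) and for 8 further matrix genes and Pvalb (diamonds). All 10 intervals above the line include 0, with Mmp9 at 0.84 and Adamts4 at -0.38 the farthest from it.

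Levels were also set against each other per length, as TPM, that is the counts over the longest GENCODE M21 transcript of each gene, scaled to the same total in each library. Timp2 was the highest at 279 ± 36.1 TPM over the 6 libraries (SD), followed by Bcan at 155 ± 10.7 TPM and Ncan at 137 ± 12.4 TPM. Tnr stood at 54.8 ± 2.09 TPM and Hapln4 at 29.7 ± 6.38 TPM. Adamts4 at 14.8 ± 3.55 TPM, Vcan at 11.95 ± 0.440 TPM and Hapln1 at 11.8 ± 1.37 TPM came next. Acan at 2.01 ± 0.342 TPM and Mmp9 at 1.05 ± 0.401 TPM were the lowest. Of the 9 neighbouring pairs in this order, 5 did not overlap over the libraries, and the overlapping ones were Bcan with Ncan, Adamts4 with Vcan, Vcan with Hapln1, and Acan with Mmp9. The means had this order within CRS, and within Ctrl with the exception that Hapln1 stood above Vcan.

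Splice forms of Vcan, Bcan and the other genes are not separated in counts per gene. Per coding length in place of transcript length, Ncan at 121 TPM stood above Bcan at 85.4 TPM, and Hapln1 at 29.4 TPM stood above Adamts4 at 11.9 TPM and Vcan at 6.87 TPM.

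**Figure D4:**
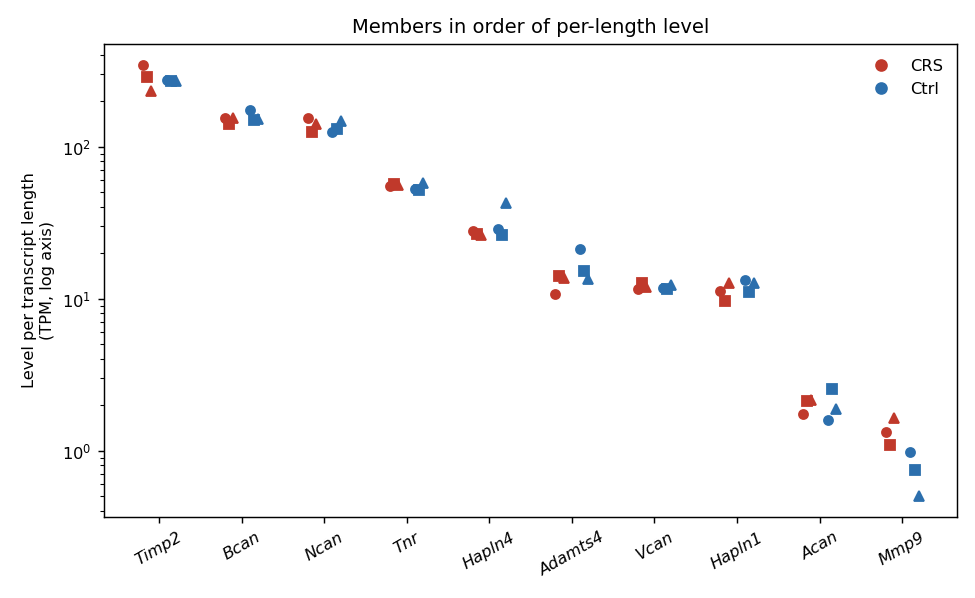
Level per transcript length (TPM, log axis) of the 10 genes in order of their mean, with 3 CRS libraries left of 3 Ctrl libraries for each gene; marker shapes give the replicate number. The genes run from 279 TPM for Timp2 to 1.05 TPM for Mmp9.

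The make-up of the lectican RNA was set against the spread in each group. Per length, Bcan made up 49.4 ± 1.07% of the sum of the 4 lecticans under CRS and 51.8 ± 3.65% in Ctrl (SD, n = 3 each). Ncan made up 46.0 ± 1.61% under CRS and 43.7 ± 3.52% in Ctrl, and Vcan 3.96 ± 0.475% under CRS and 3.87 ± 0.0772% in Ctrl. Acan made up 0.666 ± 0.110% under CRS and 0.660 ± 0.186% in Ctrl, so the signature lectican of nets was the rarest in the tissue RNA. For each of the 4 shares the group means differed by less than the larger SD. Hapln4 exceeded Hapln1 in each library, by 2.46, 2.74 and 2.10 times in CRS 1 to 3 and by 2.15, 2.38 and 3.33 times in Ctrl 1 to 3. Per coding length the ratio was smaller, at 1.40, 1.56 and 1.19 in CRS 1 to 3 and 1.22, 1.35 and 1.89 in Ctrl 1 to 3.

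Each lectican gene lies beside a link protein gene. In the order of protein-coding genes in RefSeq's GRCm38.p6 table, Acan neighbours Hapln3, Bcan neighbours Hapln2, Ncan neighbours Hapln4 and Vcan neighbours Hapln1. Both partners of 2 such pairs are among the 10 genes, and their highest and lowest libraries differed. Ncan was lowest in Ctrl 1 and highest in CRS 1, while Hapln4 was highest in Ctrl 3 and lowest in CRS 2. Vcan was highest in CRS 2, where Hapln1 was lowest.

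The wider matrix network, in 8 lists by role, was measured in the same fit. Of 108 genes, 90 passed the filter, and 0 of the 90 passed the threshold (edgeR's quasi-likelihood test, adjusted p = 0.997 for each gene named below). At an unadjusted p under 0.05 there were 4, of which 1 was higher and 3 were lower under CRS, against 1.33% higher and 2.04% lower among all tested genes. In the tested lists 45 genes had a log2 fold change above 0 and 45 below, with a median of -0.0030, and the groups did not overlap in 8.89% of them, against 8.28% of all tested genes. In 4 of these 8 CRS lay above Ctrl and in 4 below, against 3.80% and 4.48% of all tested genes.

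Among 22 enzymes that build, sulfate or degrade chondroitin sulfate chains, 13 were above 0 and 9 below, with a median of 0.03. The groups did not overlap for 2 with CRS above and 2 with CRS below (18.2%, against 8.28% of all tested genes). B4galt7, a galactosyltransferase that builds the linker between core protein and chain, had 20.6, 21.2 and 21.5 CPM in CRS 1 to 3, against 16.5, 17.7 and 18.4 CPM in Ctrl 1 to 3. Each CRS library lay above each Ctrl library, at a log2 fold change of 0.27 ± 0.09 (edgeR, unadjusted p = 0.0160). Chst11, which adds sulfate to the chains, had 49.6, 57.5 and 48.6 CPM in CRS 1 to 3, against 64.0, 63.8 and 58.2 CPM in Ctrl 1 to 3. Each CRS library lay below each Ctrl library, at -0.26 ± 0.09 (edgeR, unadjusted p = 0.0176).

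Of 12 other proteoglycans, 5 were above 0 and 7 below, with a median of -0.08. Hspg2, which encodes perlecan of vascular basement membranes, had 4.92, 8.55 and 6.45 CPM in CRS 1 to 3, against 12.2, 8.72 and 9.90 CPM in Ctrl 1 to 3. The groups did not overlap, though CRS 2 and Ctrl 2 lay close, and the log2 fold change was -0.63 ± 0.22 (edgeR, unadjusted p = 0.0216). Beside it, 7 endothelial markers were at -0.11, -0.28 and -0.18 in CRS 1 to 3 and at 0.0050, -0.15 and 0.15 in Ctrl 1 to 3, on the mean log2 scale relative to Ctrl, and these groups overlapped. The 6 pericyte and smooth muscle markers were at -0.14, -0.33 and -0.25 in CRS 1 to 3 and at -0.03, -0.07 and 0.10 in Ctrl 1 to 3. The 6 meningeal fibroblast markers were at -1.11, -0.47 and -0.64 in CRS 1 to 3 and at -0.42, 0.10 and 0.32 in Ctrl 1 to 3. In both of these lists all 6 markers had a log2 fold change below 0 and the groups did not overlap on this mean log2 scale. Summed CPM did not overlap for the pericyte list. For the meningeal list it did, at 23.7, 111 and 36.7 CPM in CRS 1 to 3, against 70.0, 109 and 71.6 CPM in Ctrl 1 to 3. Single markers overlapped in both lists, among them Igf2, Col1a2 and Rgs5, while others, such as Col3a1 and Vtn, did not. The part of vascular and meningeal cells in the Hspg2 value was not tested. Without both Ctrl 1 and CRS 1, Hspg2 was at -0.31.

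The plasminogen system and other inhibitors gave 3 of 9 genes above 0 and 6 below, with a median of -0.11.

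Other proteases were spread around 0. Among 15 ADAMTS genes 8 were above 0 and 7 below (median 0.00099), with Adamts15, a protease of lecticans, at 0.29 ± 0.14 (interval -0.03 to 0.62). The Adamts15 groups did not overlap, with the lowest CRS library at 8.55 CPM and the highest Ctrl library at 8.37 CPM. Among 7 matrix metalloproteinases 3 were above 0 and 4 below (median -0.05), with Mmp28 at 0.51 ± 0.26 (interval -0.09 to 1.11). Mmp28 had 27, 23 and 30 counts in CRS 1 to 3, against 24, 18 and 15 counts in Ctrl 1 to 3, and the groups overlapped.

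Of 8 tested genes that make, cut or bind hyaluronan, the backbone of the nets, 6 were above 0 and 2 below, with a median of 0.22. Has1 and Hmmr, the genes around that median, had only 68 and 72 counts over all libraries. Cemip and Cd44, the farthest above 0, were highest in CRS 1, at 39.8 and 16.1 CPM. Their other libraries reached at most 24.4 and 9.69 CPM. The smallest unadjusted p in this list belonged to Hyal1, a lysosomal hyaluronidase, at 0.30 ± 0.17 (interval -0.09 to 0.70). Among 13 receptors and net-bound ligands 6 were above 0 and 7 below (median -0.0093). Cntn1, a neuronal partner of tenascin-R, was at 0.12 ± 0.07 (interval -0.04 to 0.28). Its groups did not overlap, with the lowest CRS library at 894 CPM and the highest Ctrl library at 888 CPM. Of 4 further link proteins and tenascins 1 was above 0 and 3 below (median -0.09). Hapln2, the link protein of nodes of Ranvier, had 5.64, 7.94 and 6.35 CPM in CRS 1 to 3, against 11.9, 5.52 and 7.86 CPM in Ctrl 1 to 3. Ctrl 1 was its highest library, as for Adamts4, and its log2 fold change of -0.34 ± 0.29 was -0.0039 without Ctrl 1.

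**Figure D5:**
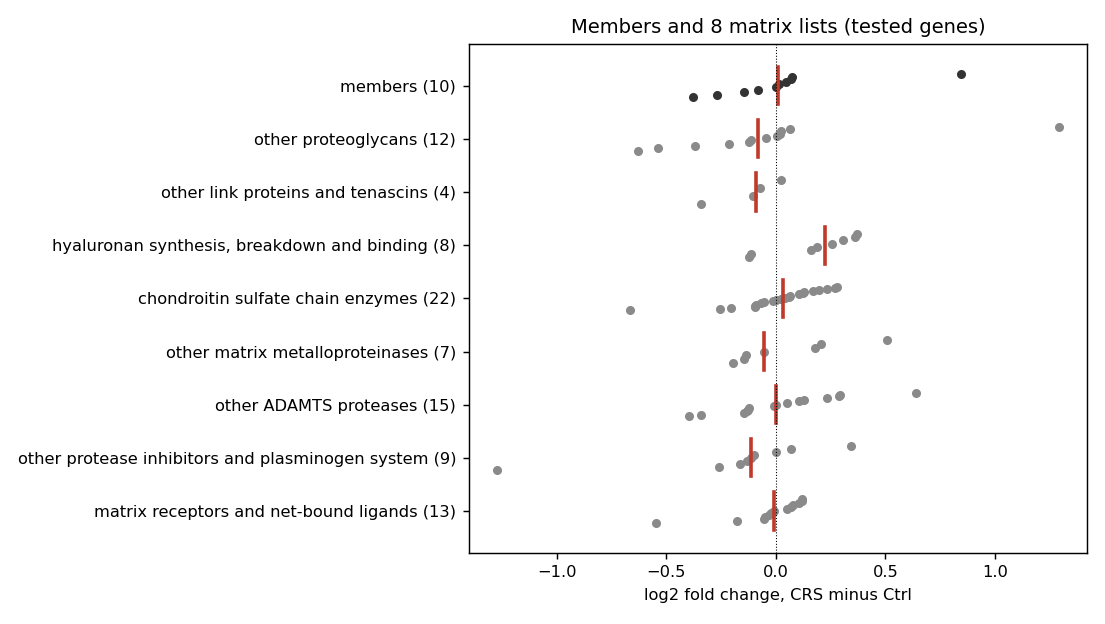
Log2 fold change, CRS minus Ctrl (horizontal axis), of each tested gene (points) among the 10 genes and the 8 matrix lists, with the number tested in brackets; red bars are list medians. Medians lie between -0.11 and 0.22, and none of the points passed the threshold over all genes.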

How the data were processed

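Each library's file, as the authors deposited it, holds unnormalized whole-number counts by gene symbol. Per the submitters' processing notes the build was mm39, and the tools named, with no role, were STAR 2.7.7a, edgeR 3.42.4, HTSeq 0.13.5 and FastQC 0.12.1. The sources used here do not give the gene annotation or the strand setting, so reads of genes that overlap on opposite strands cannot be told apart with certainty. Per the labels, libraries were stranded total RNA. Reads assigned to no gene (53.0 to 57.4% of reads) entered neither library sizes nor tests. The labels call the libraries biological replicates.

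Counts were analysed here with edgeR 4.0.16 in R 4.3.3: filterByExpr (minimum count 10), TMM, quasi-likelihood F test with robust estimation, CRS minus Ctrl, Benjamini-Hochberg adjustment over 14739 genes, threshold 0.05. SEs were derived from the fold change and F. Relative log2 levels used a prior count of 2. DESeq2 1.42.0 and limma 3.58.1 were alternatives. The procedure was tested on simulated data, in which the changed genes all had higher mean levels than Acan and Mmp9. The simulation gave all genes the same dispersion and held no differences between dissections. It therefore cannot show how the procedure performs with the differences seen here. Transcript lengths, by symbol, were found in GENCODE M21 for 24964 of 26264 symbols.

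The 10 genes and all lists were chosen with earlier results of these data known. Further genes named are the smallest unadjusted p of each of 8 lists, any with unadjusted p under 0.05 and separate groups, Pvalb (1 gene so chosen is not reported here), and the 3 genes most like each of the 2 most variable members with at least 5 CPM. Tests of 3 settings (Ctrl 1 and CRS 1 both left out, 2 marker covariates) were added after seeing the data.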

Additional observations from a re-analysis of the deposited data

How the results depend on the processing

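None of the 10 genes and none of the 90 network genes was called in any of 17 alternatives. Over all genes DESeq2 called 2 (Hpca and Ndst4) and the fits that left out 1 library called 0 to 1 (Rn18s, without Ctrl 3); these were named after their values were seen. An unadjusted p under 0.05 was seen for 496 genes, for 293 in DESeq2 and for 206 (Ctrl 1 and CRS 1 both left out) to 962 (without CRS 2) over the alternatives; for the 10 genes the count was 0 to 1, and for the network 0 to 8. The direction held for Bcan, Hapln1, Hapln4, Tnr, Mmp9 and Adamts4 in each alternative that tested them; the stricter filter removed Mmp9 and Mmp28. Leaving out single libraries gave log2 fold changes of -0.14 to 0.23 for Acan, -0.11 to -0.0094 for Bcan, 0.0062 to 0.15 for Ncan, -0.015 to 0.052 for Vcan and -0.066 to 0.20 for Timp2. Acan was also below 0 with library size alone (-0.015) and the stricter filter (-0.00055). With Ctrl 1 and CRS 1 both left out, Acan was at -0.045, Ncan at -0.046, Timp2 at -0.064 and Hapln2 at 0.098, and the median of the 10 genes was -0.045. With the oligodendrocyte covariate Acan was at -0.058, Ncan at -0.070, Hapln2 at 0.068 and the median at -0.047. With the striatal covariate Ncan was at -0.037, Timp2 at -0.11 and the median at -0.055. The cause of these shifts was not tested. Deviations of same-numbered libraries from their group means correlated at -0.42, 0.58 and 0.25, and those of differently numbered ones at -0.70 to 0.55. With 3 libraries per group these values cannot decide whether the numbers pair the libraries, and the labels do not say. With the replicate block 0 genes were called and 410 had an unadjusted p under 0.05. Depth limits Mmp9 and Acan most.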
